A study of Mus musculus with 6 samples.

Results

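Genomic imprinting was examined in the fat of mice with a paternal chromosome duplication, through 44 known imprinted genes that lie outside the duplicated stretch. The genes were chosen by symbol from the names in the scanner files, and a gene counted as measured when the scanner software rated a probe of it well above background on 3 or more of the 6 arrays. Of the 44 genes, 36 were measured among 19194 genes or unnamed features tested, namely 15 of the 19 expressed from the paternal copy and 21 of the 25 expressed from the maternal copy. The tissue was epididymal white adipose tissue, the abdominal fat pad attached to the epididymis, of 3 patDp/+ and 3 wild type mice. All 6 animals were male, 9 to 10 weeks old and on the C57BL/6 background. patDp/+ mice carry a duplication, on the chromosome 7 inherited from the father, of the stretch between Herc2 and Mkrn3, which corresponds to human 15q11-13. Total RNA of each animal was labelled with Cy3 and hybridised to 1 Agilent mouse array, so a value is the level in bulk tissue, in which fewer cells of a type and less RNA per cell cannot be told apart.

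An imprinted gene is expressed mainly from 1 parental copy, in many cases because a mark on DNA set in the egg or the sperm is kept after fertilisation. Imprinted genes lie in clusters in which a long noncoding RNA and protein-coding genes are often read from opposite parental copies. Many act on fetal growth, placenta and energy stores, and Dlk1, Mest and Peg3 have been linked to fat tissue in mice. The parental copy given for each gene is its textbook assignment in mouse. Some of these genes are imprinted only in certain tissues, and the arrays do not tell the parental copies apart.

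All values below are log2 intensity relative to the 75th percentile of the same array, given for replicates 1, 2 and 3 of a genotype, and a difference is patDp/+ minus wild type with its limma standard error (n = 3 each). Levels of different genes come from different probes and are not set against each other. No imprinted gene passed an adjusted p of 0.05 over all genes tested, and neither did any other gene: limma called 0 of 19194, while 1075 (5.6%) had an unadjusted p under 0.05. Of the 36 measured imprinted genes, 4 (11.1%) had an unadjusted p under 0.05, Rian and Slc22a2 with positive and Dio3 and Slc38a4 with negative differences. The 2 genotypes did not overlap for 6 of the 36 (16.7%), against 11.1% of all genes tested. These were the same 4 genes and, with positive differences, Slc22a18 and Tssc4. By direction, 4 of the 36 lay higher in patDp/+ fat, against 5.23% of all genes tested, and 2 of the 36 lower, against 5.87%. The counts of imprinted genes are small and were not tested against those shares.

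Replicate numbers coincided with slides, so each slide held 1 array of each genotype. Genes of the duplicated stretch served as a check of the labels. Snrpn was at 0.43, 0.77 and 0.61 in patDp/+ fat and at -0.77, -0.48 and -0.51 in wild type fat. Its difference was 1.19 ± 0.13, with an adjusted p of 0.345 in limma. Ndn differed by 1.08 ± 0.13 and Ube3a by 0.50 ± 0.07, and of 9 measured genes of the stretch 7 had positive differences with an unadjusted p under 0.05, against 2.68% of all genes tested. All 8 adipocyte markers were measured, 2 with positive and 6 with negative differences and a median of -0.09. Lep, the leptin gene, differed by 0.45 ± 0.19 and Plin1, the perilipin gene, by -0.11 ± 0.08. Of 9 epididymis and testis markers 3 were measured, and the epididymal genes Lcn5, Lcn8, Defb15, Cst11, Adam7 and Spint4 were not. Summed levels of marker lists are given in units of the 75th percentile of the array. Besides the lists named in this section there were lists for progenitors and fibroblasts, smooth muscle and pericytes, nerve and Schwann cells, and erythroid cells. For 3 of all these marker lists the summed levels did not overlap between genotypes. Of all single genes tested 11.1% did not overlap, which is not a share for summed lists, and the count of lists was not tested. The 3 measured epididymis and testis markers, Prm1, Prm2 and Tnp1, summed to 0.161 to 0.222 in patDp/+ fat and 0.224 to 0.241 in wild type fat, and each of the 3 genes overlapped. T cell markers, 5 of 6 measured, summed to 0.831 to 0.978 in patDp/+ fat and 0.621 to 0.740 in wild type fat. Cd8a, the alpha chain of CD8 on cytotoxic T cells, differed by 1.35 ± 0.13 (adjusted p = 0.345) and Cd3d, a chain of the T cell receptor complex, by 0.45 ± 0.13. The 3 measured of 5 skeletal muscle markers summed to 3.96 to 7.41 in patDp/+ fat and 2.02 to 2.39 in wild type fat. Of these, Acta1, the skeletal muscle actin gene, differed by 1.30 ± 0.27, Actn3 by -0.51 ± 0.31 and Tnnt3 by 0.01 ± 0.43, and the mean log2 level of the list overlapped between genotypes. Ckm and Myh4, which define skeletal muscle, were not measured. Macrophage markers, 7 of 7 measured, summed to 69.3, 62.6 and 47.2 in patDp/+ fat and to 51.0, 47.2 and 46.3 in wild type fat, with Itgam differing by 0.43 ± 0.19 and Csf1r by 0.22 ± 0.10. B cell markers, 5 of 5 measured, ran the other way and summed to 0.737, 0.979 and 1.68 in patDp/+ fat and to 1.85, 1.54 and 2.18 in wild type fat. Their median difference was -0.60, with Cd79b at -0.74 ± 0.28 and Ms4a1 at -1.24 ± 0.52. All 7 mesothelial markers had positive differences (median 0.08), with Msln at 0.31 ± 0.16 and Upk3b at 0.16 ± 0.15. All 5 endothelial markers had negative differences (median -0.17), with Cdh5 at -0.17 ± 0.11 and Kdr at -0.23 ± 0.16. The summed levels of both lists overlapped between genotypes. The part of these cell types in the differences of imprinted genes was not tested. Negative control probes had a higher mean net signal in patDp/+ replicate 1 (36.7) than in the remaining samples (29.0 to 31.6).

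The probes of the maternally expressed noncoding RNAs of the Dlk1-Dio3 cluster on chromosome 12, and the promoters of the genes that the values turn on, were as follows. Capitals mark CG dinucleotides, the sites at which DNA of imprinted regions is methylated. The probes are those read for Meg3 at chr12:110809678-110809737, Rian at chr12:110890293-110890352 and Mirg at chr12:110979536-110979595 (mm9, plus strand, 60 bases each), as the scanner files give them.
Meg3 probe: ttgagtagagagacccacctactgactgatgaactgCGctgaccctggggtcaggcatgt
Rian probe: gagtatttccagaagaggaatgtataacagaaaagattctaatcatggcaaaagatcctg
Mirg probe: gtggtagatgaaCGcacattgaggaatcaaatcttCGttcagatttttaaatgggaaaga
The promoters are the 250 bases before the annotated start, on the strand of the gene, from RefSeq on GRCm38.p6. Meg3 has 2 such windows, and the window with the highest count of CG dinucleotides is shown. They lie at chr7:6730420-6730669 for Peg3 (minus strand), chr12:109540746-109540995 for Meg3, chr12:110278980-110279229 for Dio3 and chr17:12583939-12584188 for Slc22a2 (plus strand).
Peg3 promoter: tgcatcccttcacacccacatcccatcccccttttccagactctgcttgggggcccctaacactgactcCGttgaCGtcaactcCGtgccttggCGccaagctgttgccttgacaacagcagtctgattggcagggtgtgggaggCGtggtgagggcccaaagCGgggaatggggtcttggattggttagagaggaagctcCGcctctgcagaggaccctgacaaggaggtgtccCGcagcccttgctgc
Meg3 promoter: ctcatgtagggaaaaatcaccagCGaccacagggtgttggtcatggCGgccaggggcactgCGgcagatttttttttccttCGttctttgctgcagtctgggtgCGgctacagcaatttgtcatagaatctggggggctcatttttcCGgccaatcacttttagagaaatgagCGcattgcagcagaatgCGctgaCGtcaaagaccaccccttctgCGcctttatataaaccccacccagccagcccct
Dio3 promoter: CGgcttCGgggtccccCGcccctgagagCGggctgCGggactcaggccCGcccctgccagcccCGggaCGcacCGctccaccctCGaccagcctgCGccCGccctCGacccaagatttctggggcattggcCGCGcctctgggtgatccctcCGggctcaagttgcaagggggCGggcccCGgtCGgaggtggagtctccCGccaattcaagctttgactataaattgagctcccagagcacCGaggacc
Slc22a2 promoter: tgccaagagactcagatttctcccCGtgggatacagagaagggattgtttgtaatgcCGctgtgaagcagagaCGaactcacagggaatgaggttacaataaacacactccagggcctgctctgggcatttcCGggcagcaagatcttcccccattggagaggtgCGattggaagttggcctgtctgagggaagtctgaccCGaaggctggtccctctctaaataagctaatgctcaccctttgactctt
These windows hold 8 CG dinucleotides before Peg3, 10 before Meg3, 21 before Dio3 and 6 before Slc22a2, and the median over 32851 such windows of all genes was 6. The letters TGCCGC, the motif of ZFP57, a zinc finger protein that keeps imprints after fertilisation, were searched on both strands. They occurred in 1 or more windows of 8 of the 32 imprinted genes with a window, Calcr, Copg2, Mcts2, Meg3, Nap1l5, Plagl1, Slc22a2 and Zim1. By window this is 8 of 46 (17.4%), against 8.68% of the windows of all genes. The motif itself contains a CG, and the median CG count was 10 in the 46 windows, against 6 in the windows of all genes. The part of CG content in the motif share was not tested. A match describes the letters only.

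Within the Dlk1-Dio3 cluster, 5 of 6 genes were measured, and Rtl1 was not analysed here. The 3 maternally expressed noncoding RNAs had positive differences, and of the paternally expressed genes Dlk1 had a positive and Dio3 a negative one. Rian, a noncoding RNA that hosts small nucleolar RNAs, was at -2.93, -3.54 and -3.42 in patDp/+ fat and at -4.28, -4.48 and -3.57 in wild type fat. All patDp/+ animals lay above all wild type animals. The difference was 0.81 ± 0.28 (unadjusted p = 0.0252, adjusted p = 0.872). By slide it was 1.35, 0.94 and 0.14, and the other Rian probe was not kept. Without wild type replicate 1, wild type replicate 2 or patDp/+ replicate 1 the unadjusted p of Rian was no longer under 0.05, at 0.0743 to 0.0771, and with array weights it was 0.0956.

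Meg3, the long noncoding RNA at the head of the maternal transcripts, was at 2.96, 3.25 and 3.19 in patDp/+ fat and at 2.72, 2.92 and 3.11 in wild type fat. The difference was 0.21 ± 0.13 (unadjusted p = 0.161), and the highest wild type animal lay above the lowest patDp/+ animal. All 5 Meg3 probes had positive differences, between 0.21 and 0.51. For the 3 dimmest the genotypes did not overlap, against 11.1% of all genes tested, and for the 2 brightest they did. At 1 of the 3 the lowest patDp/+ value was -3.7238 and the highest wild type value -3.7239. At another these values were -4.08 and -4.09. In the fit over all kept probes 2 of the 5 had an unadjusted p under 0.05, at 0.0233 and 0.0329. Probes of 1 gene are read in the same animals and are not replicates. Mirg, which hosts microRNAs, was at -1.56, -1.68 and -1.85 in patDp/+ fat and at -2.25, -2.03 and -1.66 in wild type fat. Its difference was 0.28 ± 0.17 (unadjusted p = 0.139), and wild type replicate 3 lay within the patDp/+ values.

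**Figure D1:**
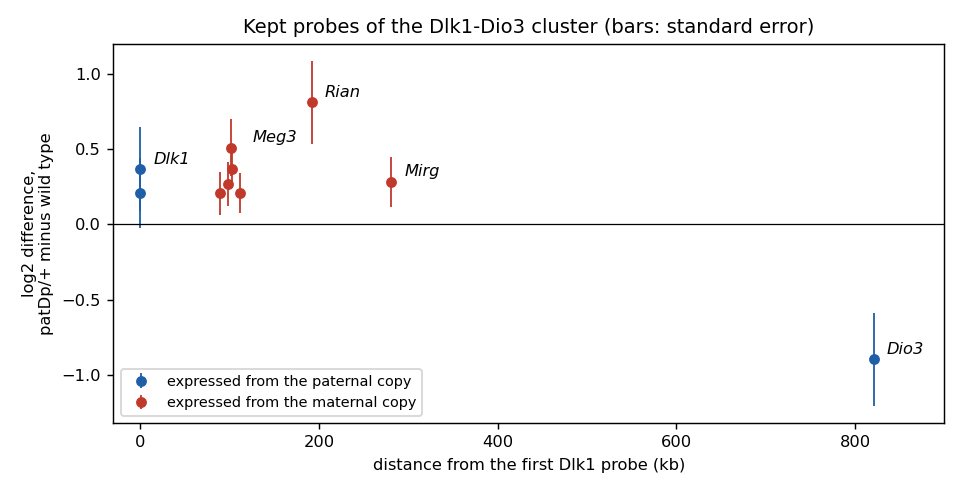
Log2 difference, patDp/+ minus wild type, of the 10 kept probes of the Dlk1-Dio3 cluster against the distance in kb from the first Dlk1 probe. Bars are limma standard errors (n = 3 each). The 7 maternal probes lie above 0, between 0.21 and 0.81, as do the 2 paternal Dlk1 probes, at 0.21 and 0.37, and the paternal Dio3 probe lies at -0.90.

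Dio3 encodes the type 3 deiodinase, which inactivates thyroid hormone, and it lies at the far end of the cluster, 821 kb from the first Dlk1 probe. It was at -2.57, -3.12 and -3.70 in patDp/+ fat and at -1.86, -2.50 and -2.35 in wild type fat. Every patDp/+ value was below every wild type value, and the difference was -0.90 ± 0.31 (unadjusted p = 0.0275, adjusted p = 0.875). By slide it was -0.71, -0.62 and -1.35, and 1 probe represents the gene. With normexp background correction the difference was -0.12, and the unadjusted p was above 0.05 there and without patDp/+ replicate 2 or 3 or wild type replicate 1 or 3, at 0.0504 to 0.0874 without 1 of these arrays. Dlk1, which encodes preadipocyte factor 1, an inhibitor of fat cell differentiation, was at -3.02, -2.67 and -3.15 in patDp/+ fat and at -3.25, -3.51 and -2.70 in wild type fat. Its difference was 0.21 ± 0.23, with overlapping genotypes, and its other probe differed by 0.37.

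**Figure D2:**
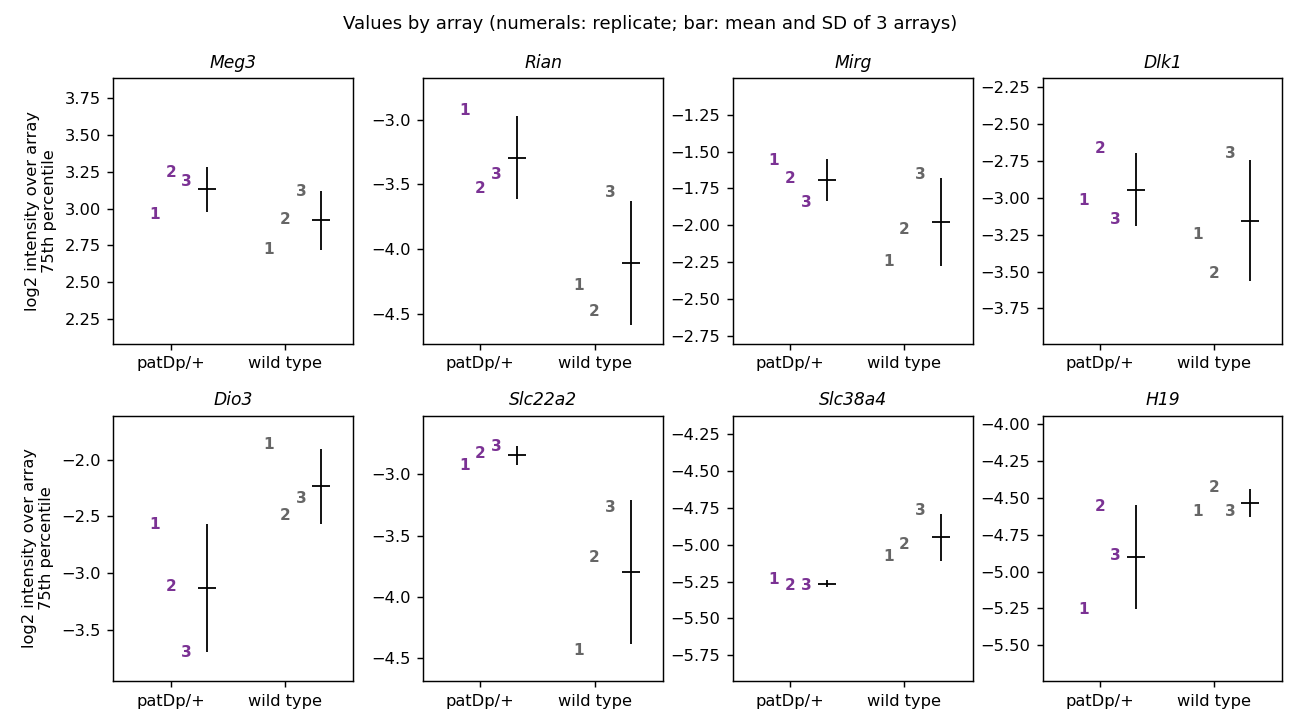
Log2 intensity over the 75th percentile of the array for 8 imprinted genes, patDp/+ left of wild type, with each array drawn as its replicate numeral and the mean and SD of 3 arrays as a bar beside them. Each panel has its own scale. Rian and Slc22a2 lie higher, and Dio3 and Slc38a4 lower, on all 3 patDp/+ arrays than on any wild type array, while the genotypes overlap for Meg3, Mirg, Dlk1 and H19.

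The Igf2r-Airn cluster on chromosome 17 was measured for all 4 genes. Slc22a2 encodes an organic cation transporter, is imprinted mainly in placenta, and was read by 1 probe at chr17:12821245-12821304 (mm9, plus strand). It was at -2.93, -2.83 and -2.77 in patDp/+ fat and at -4.44, -3.68 and -3.27 in wild type fat. The patDp/+ animals lay close together above the spread of the wild type animals. The difference was 0.95 ± 0.28 (unadjusted p = 0.0149, adjusted p = 0.872), a fold of 1.93, and by slide it was 1.51, 0.85 and 0.50. Its unadjusted p stayed under 0.05 under each of 16 alternatives, with differences of 0.46 in the authors' deposited table to 1.21 without wild type replicate 3, and no adjusted p below 0.526. Without wild type replicate 1 the difference was 0.63.

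Slc22a3, the neighbouring cation transporter, was at -2.68, -2.71 and -2.90 in patDp/+ fat and -2.84, -2.95 and -2.56 in wild type fat, with overlapping genotypes (0.02 ± 0.13). Airn, the paternal noncoding RNA whose transcription silences Igf2r in cis, was at -1.97, -2.15 and -2.21 in patDp/+ fat and at -1.66, -2.01 and -1.95 in wild type fat. Its difference was -0.24 ± 0.12 (unadjusted p = 0.101), and all 4 Airn probes had negative differences. With normexp background correction the Airn difference was 0.02. Only patDp/+ replicate 1 lay within the wild type values of Airn. Igf2r, the receptor that clears IGF2 from the cell surface, was at 2.11, 2.19 and 2.36 in patDp/+ fat and 2.23, 2.34 and 2.28 in wild type fat (-0.06 ± 0.09). Its genotypes overlapped.

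Igf2 and H19 share a cluster on distal chromosome 7, outside the duplicated stretch, in which Igf2 is expressed from the paternal copy and H19 from the maternal copy. Igf2, a fetal growth factor, was at 0.01, 0.40 and 0.46 in patDp/+ fat and at 0.48, 0.11 and 0.88 in wild type fat. The difference was -0.20 ± 0.22 with overlapping genotypes, and its other probe differed by -0.22. H19, a long noncoding RNA that is abundant before birth, was at -5.26, -4.55 and -4.89 in patDp/+ fat and at -4.59, -4.43 and -4.59 in wild type fat. That difference was -0.36 ± 0.18 (unadjusted p = 0.0899), the other H19 probe differed by 0.02, and with normexp background correction the value was 0.49. The third gene of the cluster, Ins2, was well above background on 1 array at most.

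Slc38a4, a paternally expressed amino acid transporter on chromosome 15, was at -5.24, -5.28 and -5.28 in patDp/+ fat and at -5.08, -5.00 and -4.77 in wild type fat. The genotypes did not overlap, and the difference was -0.31 ± 0.10 (unadjusted p = 0.0187, adjusted p = 0.872). The signal was dim: it was well above background on 2 of 3 patDp/+ arrays and 3 of 3 wild type arrays. With normexp background correction the difference was 0.63 (unadjusted p = 0.188). The unadjusted p was 0.304 in the authors' deposited table, 0.163 with a trended, robust variance and 0.0534 without patDp/+ replicate 2.

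Peg3 averaged -1.58 ± 0.86 in patDp/+ fat and -1.56 ± 1.28 in wild type fat (SD, n = 3 each), with wide differences between animals of 1 genotype. Peg3 encodes a zinc finger protein on proximal chromosome 7 and was read at chr7:6660440-6660499 (mm9, minus strand). It was at -1.41, -0.81 and -2.52 in patDp/+ fat and at -0.96, -3.02 and -0.68 in wild type fat. The difference was -0.02 ± 0.72, while the highest and lowest animals lay 5.06-fold apart. Its other probe was at -1.69, -1.10 and -2.71 in patDp/+ fat and at -0.86, -3.64 and -0.98 in wild type fat, with the lowest values in the same animals, wild type replicate 2 and patDp/+ replicate 3. The residual standard deviation of Peg3 within genotypes stood at percentile 99.3 of all genes tested.

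Mest, a paternally expressed gene from the list of other imprinted genes, was chosen after its values were seen, because it was lowest in the same 2 animals. It encodes an alpha/beta hydrolase-fold protein linked to fat cell enlargement in mice. Mest was at 3.32, 3.79 and 1.76 in patDp/+ fat and at 3.16, 0.66 and 3.51 in wild type fat. Its difference was 0.51 ± 0.88, its range over the 6 animals 8.76-fold, and its residual standard deviation at percentile 99.7. Nnat, which encodes the small membrane protein neuronatin, was also lowest in those 2 animals, at 5.63, 6.12 and 5.22 in patDp/+ fat and 5.49, 4.93 and 5.58 in wild type fat (0.32 ± 0.27). The share of all genes tested that were lowest in the same 2 animals was not counted, so this shared order is only described. Dlk1 was lowest in wild type replicate 2, but its next lowest value was in wild type replicate 1. Progenitor and fibroblast markers, 11 of 11 measured, summed to 203.9 in patDp/+ replicate 3 and 204.7 in wild type replicate 2, and to 216.5 to 241.0 in the other 4 animals. That order was not seen in the mean log2 level of the same markers, which was 3.34, 3.38 and 3.21 in patDp/+ fat and 3.05, 3.13 and 3.16 in wild type fat. Of these markers Fbn1 differed by 0.50 ± 0.18 and Mfap5 by 0.44 ± 0.19. The part of these cells in the spread was not tested.

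**Figure D3:**
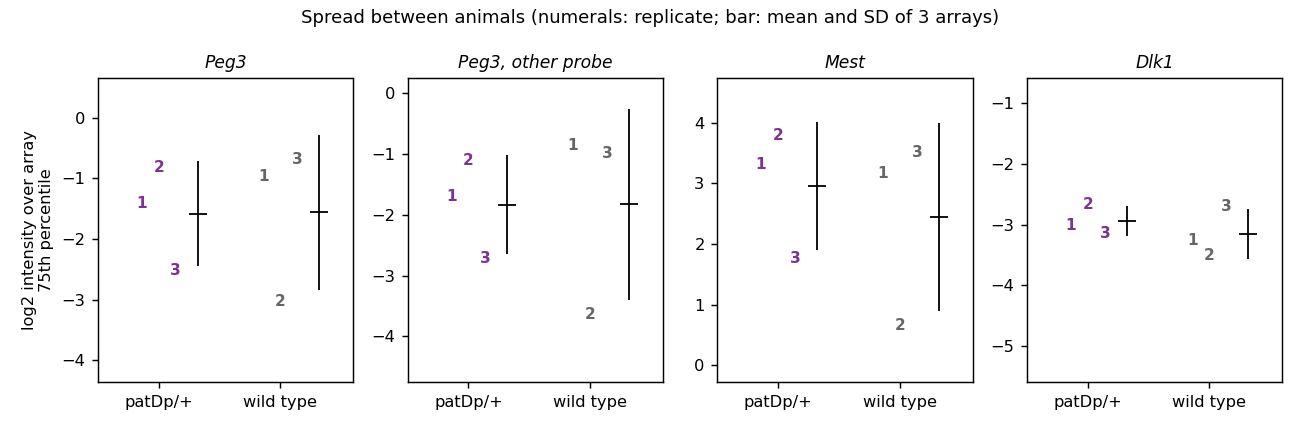
Log2 intensity over the 75th percentile of the array for both Peg3 probes, Mest and Dlk1, patDp/+ left of wild type, with each array drawn as its replicate numeral and the mean and SD of 3 arrays as a bar. All panels span the same number of log2 units. Both Peg3 probes and Mest are lowest in wild type replicate 2 and next lowest in patDp/+ replicate 3.

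Usp29, which encodes a ubiquitin-specific peptidase, is transcribed away from Peg3, and the promoter windows of the pair, extended to 50 bases after each start, share 263 bases. Neither Usp29 probe was well above background on more than 1 of 6 arrays. Zim1, a maternal zinc finger gene of the same cluster, was well above background on 1 array, and Zim3 was not analysed here.

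The spread within genotypes was above percentile 90 of all genes for 6 of the 36 imprinted genes (16.7%), against 10.0% of all genes by definition. They were Peg10, Peg3, Dio3, Slc22a2, Rian and Nnat. The median residual standard deviation was 0.256 for paternally expressed genes and 0.148 for maternally expressed genes, beside 0.146 for all genes tested. Dim genes vary more, and neither these medians nor the percentiles were matched for signal. The part of signal level in the spread of either set of genes was not tested. Peg10, a gene derived from a retrotransposon, was at -3.52, -6.12 and -6.12 in patDp/+ fat and at -4.08, -5.37 and -6.18 in wild type fat (-0.04 ± 0.86). It was well above background on 1 patDp/+ array and 2 wild type arrays, so its spread includes values near the detection limit.

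**Figure D4:**
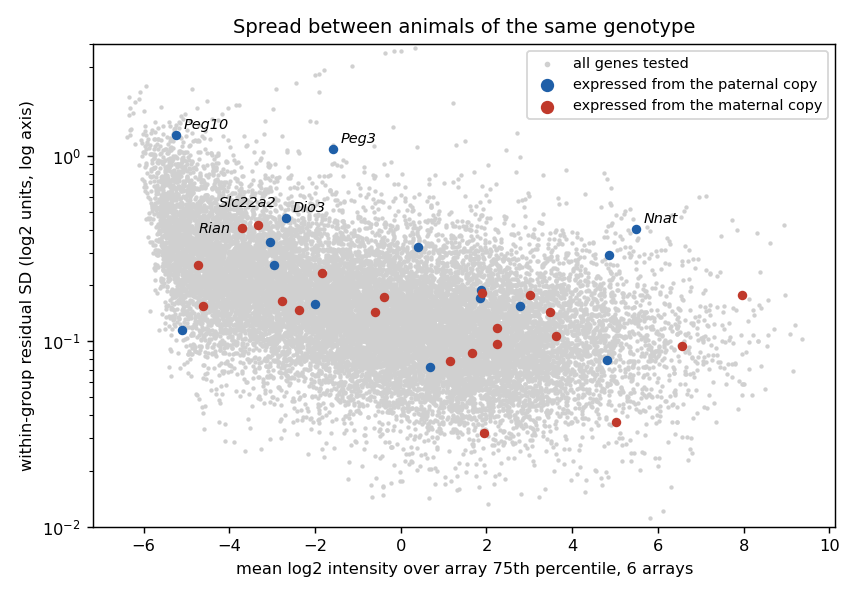
Within-genotype residual standard deviation in log2 units (log axis) against the mean log2 intensity over the 75th percentile of the array, for 19194 genes tested (grey) and the 36 measured imprinted genes, coloured by the parental copy expressed. Dim genes vary more. Peg3 stands above most genes of similar signal, and the 6 named genes lie above percentile 90.

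The Kcnq1 cluster on distal chromosome 7 varied little. Of its 9 genes 8 were measured, their differences ran between -0.17 and 0.13, and their median residual standard deviation was 0.0862. Kcnq1ot1, the paternal noncoding RNA that silences its neighbours, was at 0.73, 0.68 and 0.66 in patDp/+ fat and 0.70, 0.57 and 0.76 in wild type fat (0.01 ± 0.08). Cdkn1c, the cell cycle inhibitor p57, was at 1.88, 1.91 and 1.90 in patDp/+ fat and 1.83, 1.69 and 2.19 in wild type fat (0.00 ± 0.14). Neither gene separated the genotypes. Slc22a18, a transporter of the same family as Slc22a2, was at 1.24, 1.22 and 1.21 in patDp/+ fat and 0.97, 1.19 and 1.12 in wild type fat. Tssc4 was at 1.98, 1.96 and 1.99 in patDp/+ fat and at 1.87, 1.92 and 1.96 in wild type fat. Neither overlapped between genotypes, but the differences were 0.13 ± 0.08 and 0.06 ± 0.07, with unadjusted p of 0.174 and 0.406.

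The tetraspanin gene Cd81 was at 6.52, 6.61 and 6.64 in patDp/+ fat and 6.66, 6.43 and 6.56 in wild type fat (0.04 ± 0.09). The potassium channel gene Kcnq1 was at -0.36, -0.56 and -0.76 in patDp/+ fat and -0.63, -0.69 and -0.64 in wild type fat (0.10 ± 0.11). For both genes the values of the genotypes overlapped. Ascl2, a transcription factor gene needed in placenta, was at -4.86, -4.65 and -4.57 in patDp/+ fat and -4.63, -4.34 and -4.60 in wild type fat (-0.17 ± 0.12, and 0.58 with normexp background correction). Nap1l4, which encodes a nucleosome assembly protein, was at 5.02, 4.96 and 4.99 in patDp/+ fat and 5.07, 5.10 and 5.02 in wild type fat (-0.07 ± 0.07). Phlda2, a growth-restraining gene of placenta, was not well above background on any array.

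Growth and signalling regulators at single loci had differences within their errors or little beyond them. Plagl1, a zinc finger transcription factor that acts on other imprinted genes in mice, was at 5.01, 4.79 and 5.08 in patDp/+ fat and 4.47, 4.58 and 5.19 in wild type fat. Its difference was 0.22 ± 0.20, and both of its probes differed by 0.22. Grb10, an adaptor that restrains insulin and IGF receptors, was at 2.30, 2.22 and 2.28 in patDp/+ fat and 2.09, 2.24 and 2.42 in wild type fat (0.01 ± 0.10). Gnas, the gene of the stimulatory G protein alpha subunit that couples hormone receptors to cyclic AMP in fat cells, was at 3.53, 3.35 and 3.48 in patDp/+ fat and 3.33, 3.68 and 3.45 in wild type fat (-0.03 ± 0.11). Of its 7 probes 3 were kept, and its antisense RNA Nespas was not analysed here. Dcn, the gene of the matrix proteoglycan decorin, was at 8.06, 7.98 and 7.72 in patDp/+ fat and 8.20, 7.93 and 7.88 in wild type fat (-0.08 ± 0.13), and its other probe differed by -0.36. Impact, a regulator of translation under amino acid shortage, was at 2.86, 2.73 and 2.96 in patDp/+ fat and 2.92, 2.62 and 2.58 in wild type fat (0.15 ± 0.12).

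In the Peg10 cluster on chromosome 6, Asb4 and Sgce lay within overlapping ranges. Asb4, an ankyrin repeat and SOCS box gene, was at -2.30, -2.06 and -2.44 in patDp/+ fat and -2.40, -2.59 and -2.51 in wild type fat (0.23 ± 0.12, unadjusted p = 0.0899). Sgce, the gene of epsilon-sarcoglycan, was at 4.73, 4.80 and 4.91 in patDp/+ fat and 4.79, 4.86 and 4.72 in wild type fat (0.02 ± 0.08). Ppp1r9a, which encodes the actin-binding protein neurabin, was at 1.59, 1.64 and 1.78 in patDp/+ fat and 1.76, 1.63 and 1.62 in wild type fat. Its difference was 0.00 ± 0.09, but its 4 kept probes disagreed in sign, the lowest at -0.30. The calcitonin receptor gene Calcr was not well above background on any array. Copg2, a coatomer subunit gene, was at -0.45, -0.51 and -0.16 in patDp/+ fat and -0.60, -0.32 and -0.33 in wild type fat (0.04 ± 0.13), with both signs among its 3 probes.

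The imprinted retrogenes Mcts2, Nap1l5 and Zrsr1 arose from copied genes elsewhere in the genome, so a probe may also read the close relative. Mcts2 was at 1.80, 1.59 and 2.06 in patDp/+ fat and 1.85, 1.97 and 1.88 in wild type fat (-0.08 ± 0.13). Nap1l5 was at -3.29, -3.17 and -2.71 in patDp/+ fat and -2.89, -2.68 and -3.07 in wild type fat (-0.18 ± 0.18). Their genotypes overlapped. Zrsr1, which lies within an intron of Commd1, was at 1.56, 1.86 and 2.09 in patDp/+ fat and 1.93, 1.89 and 1.84 in wild type fat (-0.05 ± 0.14). Commd1, a gene of copper handling, was at 3.69, 3.48 and 3.65 in patDp/+ fat and 3.51, 3.66 and 3.70 in wild type fat (-0.02 ± 0.10).

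Split by parental copy, 6 of 15 paternally expressed genes had positive and 9 negative differences, with a median of -0.04. Of 21 maternally expressed genes 13 had positive and 8 negative differences, with a median of 0.02. Over all genes tested 47.3% of differences were positive and 52.7% negative, and the median was -0.01. Of the 15 paternally expressed genes 2 had an unadjusted p under 0.05, both negative, against 2.92% of all genes tested. Of the 21 maternally expressed genes 2 did so, both positive, against 2.68% of all genes tested. Over all imprinted genes, 29 of 36 (80.6%) had a difference between -0.25 and 0.25. The share of all genes tested within these bounds was not counted.

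**Figure D5:**
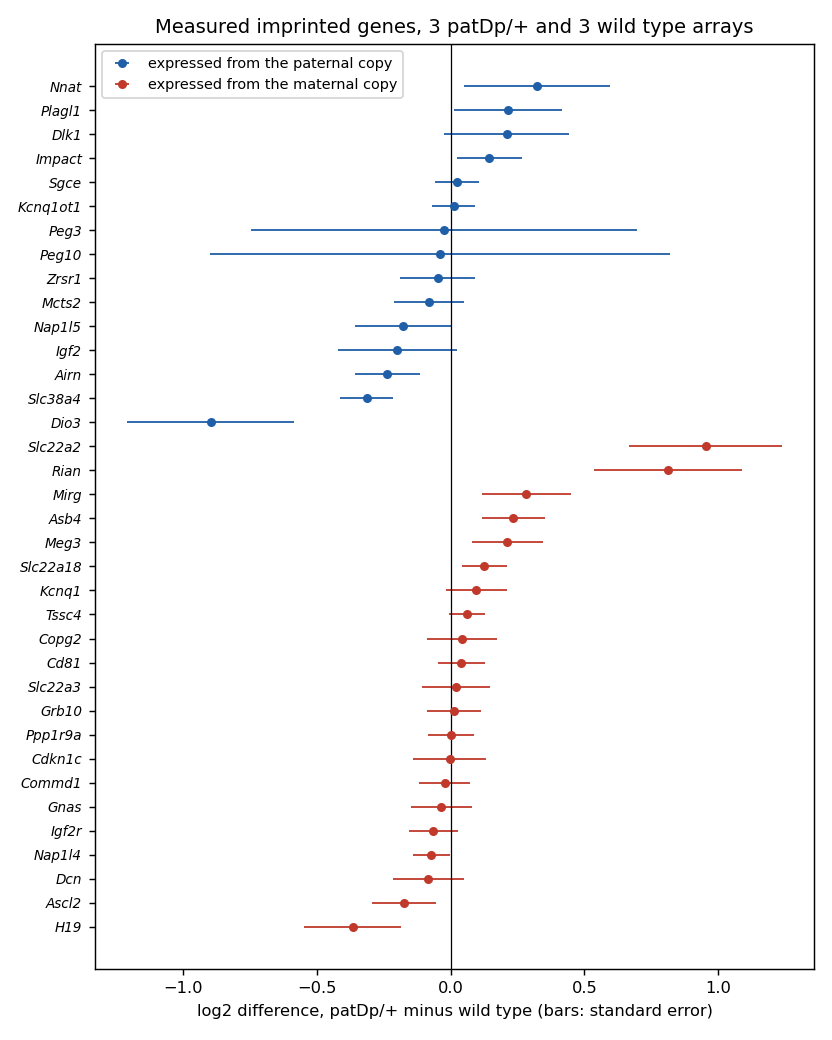
Log2 difference, patDp/+ minus wild type, of the 36 measured imprinted genes, with the limma standard error (n = 3 each) as bars, by the parental copy expressed. Most points lie within 0.25 of 0. Slc22a2 (0.95), Rian (0.81) and Dio3 (-0.90) lie farthest out, and Peg3 and Peg10 have the widest bars.

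Among genes around the imprinted ones, the IGF and insulin axis was measured for 15 of 19 genes, of which 2 had positive and 2 negative differences with an unadjusted p under 0.05, against 2.68% and 2.92% of all genes tested. Igfbp2, a binding protein of IGFs, was at -0.64, -0.21 and -0.24 in patDp/+ fat and at 0.41, 0.24 and 0.06 in wild type fat (-0.60 ± 0.15, unadjusted p = 0.00738). Pappa, a protease that frees IGFs from binding proteins, was at -2.89, -3.16 and -3.85 in patDp/+ fat and at -1.80, -2.88 and -2.15 in wild type fat (-1.03 ± 0.35, unadjusted p = 0.0256). Both were lower on all patDp/+ arrays, and neither passed the adjustment over all genes. Igfbp6 differed by 0.23 ± 0.08 and Htra1, a protease that also cleaves IGF binding proteins, by 0.19 ± 0.07. Factors that set or keep imprints were measured for 19 of 22 genes, with 6 positive and 13 negative differences, a median of -0.04 and none with an unadjusted p under 0.05 in limma, against 5.6% of all genes tested. Zfp445, which keeps imprints together with ZFP57, differed by -0.11 ± 0.08, and the maintenance methyltransferase gene Dnmt1 by 0.10 ± 0.10. Zfp57 itself was not measured. Of 27 other imprinted genes 18 were measured, 12 with positive and 6 with negative differences. Of the 18, 1 had an unadjusted p under 0.05, against 5.6% of all genes tested. It was Sfmbt2, a Polycomb-related gene, at -4.82, -4.91 and -4.60 in patDp/+ fat and -4.05, -4.26 and -4.52 in wild type fat (-0.50 ± 0.15, unadjusted p = 0.0139). Klf14, a transcription factor gene linked to fat distribution in humans, was at -3.71, -3.06 and -4.35 in patDp/+ fat and -5.64, -4.98 and -3.96 in wild type fat (1.16 ± 0.50, unadjusted p = 0.0586).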

How the data were processed

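Feature Extraction 9.5.1.1 quantified the arrays, per the file headers, and the deposited processed intensity of a spot is background-subtracted and spatially detrended within its array, not scaled between arrays. The mean and background intensity of each spot were also deposited. Both limma 3.18.2 and Agilent Feature Extraction 9.5 are named in the submitters' processing notes. The authors deposited a table of log2 values of the same arrays, used as an alternative only; its background correction is not given.

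For the values used here, the processed intensity was put on the log2 scale and the array's 75th percentile over non-control probes was subtracted. Outlier spots were left out and spots of a probe averaged. Probes well above background on at least 3 of 6 arrays were kept (27975 of 41174; 67 of 88 probes of the imprinted genes), and the brightest kept probe represented a gene. Groups came from the titles, because the source name of every sample read wild type and replicate 1. limma 3.58.1 in R 4.3.3 (lmFit, eBayes, two-sided) compared the genotypes without covariates, with Benjamini-Hochberg adjustment over 19194 features. Data of that size were simulated with normal noise, with 100 genes changed by 1 log2 unit and 100 by 2 together. limma recovered 73 and 88 of these, with 9 false calls. So many changed genes ease the adjustment, so these rates are not the power in the arrays studied. Snrpn, with a difference of 1.19, had an adjusted p of 0.345 in limma. The labels speak of 3 mice of each genotype, so p-values measure the spread between animals. The number of arrays limits the precision.

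Gene names are those of the scanner files, updated through RefSeq accessions where these matched (27050 probes). Probe coordinates are on mm9. Exons and untranslated regions under the probes were not analysed here. Every imprinted gene of the list is named. A measured gene has its values by array where its unadjusted p is under 0.05, the genotypes do not overlap, it is the brightest of its cluster, or its probes or alternatives disagree in sign; of each other list described, at least the 2 genes with the smallest p are named, and Ube3a is added as a check of the labels. The imprinted genes and all lists were chosen with earlier results of these data known. The slide is shared by the 2 arrays of a replicate number, per the file headers; deviations from the genotype means of same-numbered arrays correlated at 0.11, -0.09 and -0.04 over genes. Alternatives were normexp background correction (offset 50), quantile and cyclic loess normalization, the deposited table, other filters, the mean of all probes, a slide block, array weights, a trended variance and leaving out each array.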

Additional observations from a re-analysis of the deposited data

How the results depend on the processing

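No gene passed an adjusted p of 0.05 under limma's main setting or any of 16 alternatives, and so no imprinted gene did. The unadjusted p was under 0.05 for 1075 genes (514 higher, 561 lower, 47.8% higher), for 1742 with array weights, and for 755 to 1788 without 1 array, the highest without patDp/+ replicate 3. The share of these that were higher was 63.5% (528 and 303 genes) with normexp background correction and 60.7% (736 and 476) with no filter on dim probes. With the replicate block, which is the slide, there were 982 such genes, and the imprinted genes among them were Airn, Dio3, Rian, Slc22a2 and Slc38a4. With no gene called in the main setting, the block had no call to end. Imprinted genes with an unadjusted p under 0.05 numbered 4, and 2 to 5 without 1 array, the lowest without wild type replicate 1. Slc22a2 was among them under 16 of 16 alternatives, Rian under 12 of 16 (0.37 to 1.08), Dio3 under 11 of 16 (-1.18 to -0.12) and Slc38a4 under 11 of 15 (-0.41 to 0.63). Of 574 values of imprinted genes under alternatives, 60 had another sign, in 24 genes. The 12 genes whose sign did not change under any alternative were Asb4, Dio3, Dlk1, Igf2, Igf2r, Meg3, Mirg, Nap1l4, Nnat, Rian, Slc22a18 and Slc22a2. With normexp 14 of 36 had another sign than in the main setting, among them Ascl2 (0.58), H19 (0.49), Slc38a4 (0.63), Peg10 (0.73), Nap1l5 (0.20) and Airn (0.02). The median difference over all genes tested was 0.07 with normexp and -0.01 in the main setting. The share of all genes with another sign was not counted, and the cause was not tested. The number of animals limits what a single gene can show.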
